A study of Homo sapiens with 4 samples.

Results

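The 38 genes described here drive the cell cycle and copy the genome, and the measurement is how open the chromatin at their ends was in AMO1, an established line of malignant plasma cells (multiple myeloma). They were taken from a list of symbols, out of 19974 protein-coding genes on chromosomes 1 to 22 and X. For every gene the peaks within 1 kb of either end (build hg38) were collected from the 4 peak lists and the tallest was kept. Open chromatin was measured by ATAC-seq, where a transposase, Tn5, inserts sequencing tags into accessible DNA. The empty vector library came from cells labelled WT that received the PCDH vector without an insert. The PHF19 overexpression library came from cells that received PHF19 plasmids. PHF19 is one of the Polycomb-like proteins and an accessory subunit of the histone methyltransferase complex PRC2. Another library of each kind carries IFN before the cell line's name in its title, here called IFN empty vector and IFN PHF19 overexpression. No label explains that prefix, names a dose or time, or says whether the transfected cells were selected or cloned. All 4 libraries share the cell line, the transfection, the DNase I treatment before lysis and the Tn5 step. Each group holds 1 library, so nothing was tested and every interval covers counting error only.

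Cells enter the cycle when cyclin D and cyclin E kinases phosphorylate the retinoblastoma protein and free the E2F factors, which switch on the genes of DNA replication. Before replication, CDC6 and CDT1 load the ring of MCM proteins onto origins, and that ring later becomes the core of the helicase that opens the double helix. Genes of G2 and mitosis are switched on later by B-MYB (MYBL2) and FOXM1, which act with the MuvB complex at a promoter element called CHR (cell cycle genes homology region), often next to CCAAT boxes. In myeloma a high level of such proliferation genes is known as a mark of fast-growing disease.

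The lists rested on 16.4 to 65.9 M (mega) fragments, the most in the IFN empty vector library, which held 69830 peaks against 44090 to 49155 in the others. Its header also names another project folder than the other 3. All 10 plasma cell markers, SDC1 the tallest, had a gene-end peak in all 4 libraries, with summed heights of 262 to 426 fragments per M. MS4A1 and PAX5, markers of earlier B cells, had none in any library. Of 7 T and NK cell markers 5 had a peak in some library, with summed heights of 13.5 to 14.4 and CD3E the tallest, and of 5 myeloid markers SPI1 alone had one, with 1.04 to 3.40. For PHF19 itself, a narrow peak inside the gene (chr9:120857950-120858284) had 144 fragments at its summit with PHF19 overexpression and 120 with IFN PHF19 overexpression, or 7.90 and 7.33 per M. Neither empty vector library had it.

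The promoters of 30 of the 38 genes could be read at the gene's own start from RefSeq (GRCh38.p14), as 250 bases before to 50 bases after the start. They were searched on both strands for an E2F word (TTTCGCGC or TTTGGCGC), the CHR (TTTGAA), the CCAAT box (CCAAT) and the GC box (GGGCGG). The E2F word stood in 9 of the 30 (30.0%), against 1.73% of 14294 promoters in all and 2.35% of the 9155 promoters of genes with a gene-end region in all 4 libraries. By role it stood in 5 of 6 licensing and helicase genes (MCM2, MCM3, MCM6, MCM7 and CDC6). It also stood in 3 of 7 genes of the step from G1 to S (E2F1, E2F2 and CDC25A) and in 1 of 7 G2 to M genes (CDK1). The word was in 0 of 3 fork and nucleotide genes (PCNA, RRM2 and TYMS) and in 0 of 7 mitosis genes. The CHR stood in 8 of the 30 (26.7%), against 11.9% of all promoters and 9.25% of the open ones. Of its 8 genes 5 act in mitosis (CDC20, MKI67, BUB1B, PLK1 and TOP2A), and the others are CDK1, CCNB2 and E2F3. The CCAAT box was found in 19 (63.3%), against 36.7% of all promoters, and the GC box in 23 (76.7%), against 59.4% of all and 71.9% of the open ones. Other genes of the same processes, described at the end of the Results, had 62 readable promoters. Of these 9.68% held the E2F word, 35.5% the CHR, 61.3% the CCAAT box and 74.2% the GC box. For the CHR that share was above the members' own. A match is a run of letters and not a measured binding site.

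The bases before the start are shown for 7 genes, each read from the strand of the gene, and all 7 stretches lie inside the gene-end regions measured here. Capitals mark E2F words, CHR and CCAAT on either strand, so that CCAAT reads ATTGG where it lies on the other strand, and GC boxes are left in lower case. MCM6 (chr2:135876444-135876693, minus strand) and E2F2 (chr1:23531234-23531483, minus strand) show the E2F word. In MCM6 it occurs at 2 places, each made of TTTGGCGC and, overlapping it, TTTCGCGC read on the other strand. CCNB2 (chr15:59104896-59105145, plus strand) and PLK1 (chr16:23678639-23678888, plus strand) show the CHR downstream of CCAAT boxes, and in both the CHR begins at base -29 from the start.
MCM6: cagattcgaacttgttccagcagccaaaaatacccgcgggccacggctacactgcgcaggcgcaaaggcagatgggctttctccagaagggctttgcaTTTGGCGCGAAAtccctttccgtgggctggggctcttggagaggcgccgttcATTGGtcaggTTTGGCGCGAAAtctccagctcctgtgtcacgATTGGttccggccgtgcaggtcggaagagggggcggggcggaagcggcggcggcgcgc
E2F2: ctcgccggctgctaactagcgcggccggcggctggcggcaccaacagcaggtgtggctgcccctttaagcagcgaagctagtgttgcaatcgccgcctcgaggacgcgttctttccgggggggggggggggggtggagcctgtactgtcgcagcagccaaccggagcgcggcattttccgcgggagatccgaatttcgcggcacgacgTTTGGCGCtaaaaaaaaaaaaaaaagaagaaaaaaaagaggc
CCNB2: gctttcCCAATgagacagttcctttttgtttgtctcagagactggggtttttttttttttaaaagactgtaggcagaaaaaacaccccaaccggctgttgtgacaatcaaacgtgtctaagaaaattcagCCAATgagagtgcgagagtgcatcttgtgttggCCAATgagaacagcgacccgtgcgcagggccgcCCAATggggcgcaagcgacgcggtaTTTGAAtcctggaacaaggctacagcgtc
PLK1: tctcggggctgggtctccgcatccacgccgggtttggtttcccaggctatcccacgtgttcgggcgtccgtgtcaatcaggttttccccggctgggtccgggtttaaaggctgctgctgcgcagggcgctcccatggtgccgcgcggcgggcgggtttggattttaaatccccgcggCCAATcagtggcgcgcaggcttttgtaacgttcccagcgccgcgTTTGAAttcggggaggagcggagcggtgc
RRM2 (chr2:10122489-10122738, plus strand) had the tallest peak of any member whose peak lay at a known start, and its stretch holds 3 CCAAT boxes in a row. CDK6 (chr7:92836574-92836823, minus strand) and CDC25B (chr20:3786701-3786950, plus strand) had the highest ratios for PHF19 overexpression against empty vector. Neither stretch holds a capital letter.
RRM2: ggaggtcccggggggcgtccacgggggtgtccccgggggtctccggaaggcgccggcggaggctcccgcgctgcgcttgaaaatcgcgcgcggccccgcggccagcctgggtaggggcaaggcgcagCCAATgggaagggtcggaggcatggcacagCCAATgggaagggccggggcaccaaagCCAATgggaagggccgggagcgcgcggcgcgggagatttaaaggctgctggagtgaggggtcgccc
CDK6: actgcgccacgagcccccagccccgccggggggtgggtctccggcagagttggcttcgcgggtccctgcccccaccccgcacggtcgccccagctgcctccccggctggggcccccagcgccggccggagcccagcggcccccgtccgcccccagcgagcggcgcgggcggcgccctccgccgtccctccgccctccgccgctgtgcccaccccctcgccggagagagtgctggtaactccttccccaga
CDC25B: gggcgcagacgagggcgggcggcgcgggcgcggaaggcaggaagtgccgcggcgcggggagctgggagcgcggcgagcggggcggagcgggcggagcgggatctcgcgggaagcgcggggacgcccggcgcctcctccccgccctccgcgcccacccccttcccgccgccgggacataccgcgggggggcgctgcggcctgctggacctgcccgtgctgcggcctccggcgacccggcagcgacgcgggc

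All 38 genes had a gene-end peak in each of the 4 libraries, where 60.0% of all protein-coding genes had a gene-end region with a peak in all 4. The 38 genes had 38 different regions. Height is the number of fragments covering the tallest summit, per M of the library's fragments. The median height of the members was 9.32, 8.12, 7.21 and 7.88 per M in the libraries of empty vector, of PHF19 overexpression, of IFN empty vector and of IFN PHF19 overexpression, the order kept for every row of 4 values here. Over the 11984 genes with a gene-end region in all 4 libraries it was 8.15, 7.13, 6.59 and 7.45. A member's height averages over all cells of a library, so more open cells and more cutting per open cell cannot be told apart, nor can the phases of the cycle. By the mean of the 4 libraries 24 members stood in the upper 50% of the 10111 gene-end regions and 7 in the upper 10%, while 3 stood in the lower 25% (CDC25B, CDT1 and BIRC5). In 34 members the 4 heights lay within 1.5-fold of each other, a count not taken over all genes. Over all 38 members the tallest summits rested on 56 to 1595 fragments.

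**Figure D1:**
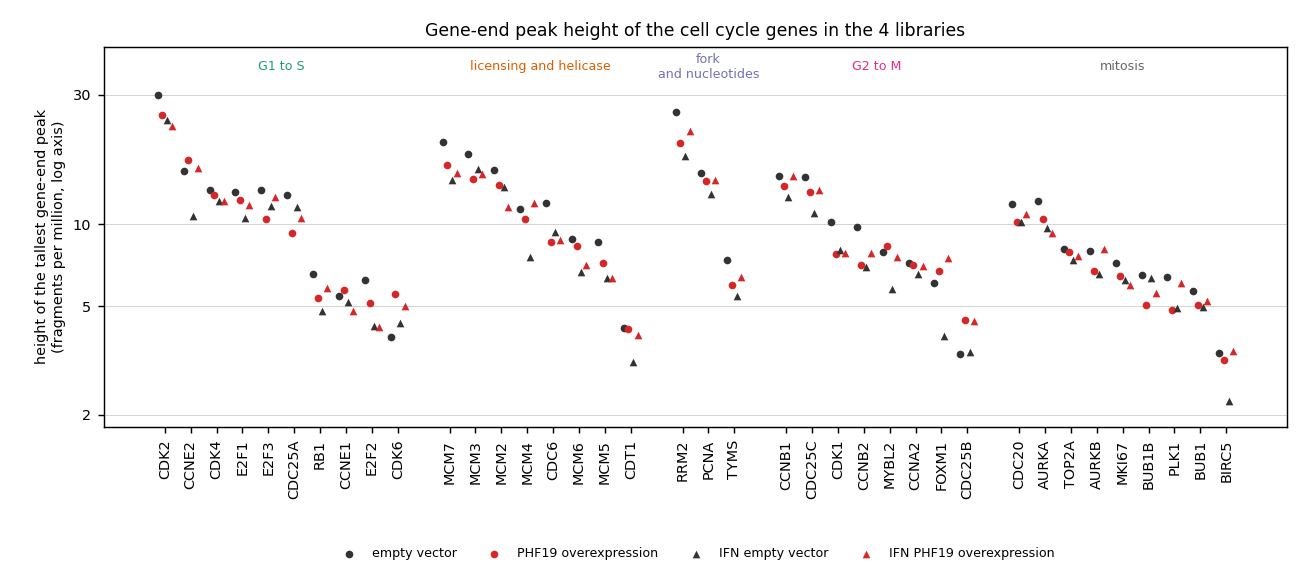
Height of the tallest gene-end peak (fragments per M, log axis) of the 38 cell cycle genes in the 4 libraries, grouped by role and ordered within a role by mean height. Each point is 1 library, circles are unprefixed and triangles IFN-prefixed, black is empty vector and red PHF19 overexpression; the 4 points of a gene mostly lie close together, while genes range in mean height from 3.05 (BIRC5) to 25.6 (CDK2).

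A start was given for 31 members, and in all 31 the tallest region lay at the start. The summit, as the median of the 4 libraries, stood a median of 80 bp before the start (-80), between -289 and 578, within 100 bp of it in 15 members and within 200 bp in 27. It lay before the start in 24 and after it in 7, TYMS the farthest at 578. In 28 of the 38 genes the tallest summits of the 4 libraries fell within 100 bp of each other, again counted for members only. Member peaks were single in most cases, with 1 summit in 28 to 31 of 38 genes per library and a median length between 1287.5 and 1508.5 bp. Their fold enrichment, the authors' ratio to local background, had a median of 9.21 to 10.1 per library.

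Genes of the G1 to S step had a median mean height of 11.5 per M, at the 81.8th percentile of gene-end regions. CDK2, the kinase partner of cyclin E, had the tallest peak of the list at 29.8, 25.3, 24.2 and 23.1 per M. That region (chr12:55973194-55974524) reaches into the window at the upper end of CDK2, belongs to the neighbouring gene RAB5B as well, and has its summit more than 1 kb outside CDK2. The region at the other end of CDK2 (chr12:55966177-55967518) had 5.81, 5.10, 5.43 and 5.19, a mean of 5.38. Taken by that region, CDK2 would stand below CDC25A (11.1) and RB1 (5.66) in mean height. The median of this role would then lie between CDC25A and RB1. CCNE2, a cyclin E gene that shares its region with NDUFAF6, followed with 15.7, 17.2, 10.7 and 16.1. CDK4 and CDK6 encode the kinases of the D cyclins, and CDK4 (13.4, 12.8, 12.2 and 12.2) stood about as high as the activator genes E2F1 and E2F3. CDK6 was the lowest of its role at 3.87, 5.54, 4.34 and 5.01, with both PHF19 overexpression libraries above both empty vector libraries. Against regions of like height, the reference defined below, the log2 ratio of CDK6 in the IFN-prefixed pair was 0.02 (-0.35 to 0.38). RB1, the retinoblastoma gene, ranged from 4.81 to 6.58 and E2F2 from 4.21 to 6.25.

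The licensing and helicase genes had a median of 10.0 per M (73.8th percentile). MCM7, a subunit of the MCM ring whose region is shared with AP4M1, was the tallest of them at 20.1, 16.6, 14.6 and 15.5. CDT1, the loading factor, was the lowest at 4.17, 4.12, 3.11 and 3.91, over the longest region of any member (2749 bp), which held up to 3 summits. The 6 MCM genes were spread over a wide range, with MCM3 next at a mean of 16.1, then MCM2 (13.8), MCM4 (10.4), MCM6 (7.74) and MCM5 (7.14). The tallest and the lowest of the 6 genes of this ring thus differed more than 2-fold in mean height. Of the 3 genes at the fork or in nucleotide supply, RRM2, the small subunit of ribonucleotide reductase, was the tallest at 25.9, 20.0, 17.8 and 22.1. PCNA, the sliding clamp of the polymerases, had 15.4, 14.4, 12.9 and 14.6. TYMS, thymidylate synthase, was the lowest with 7.38, 5.98, 5.46 and 6.41.

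By median, peaks were lower at genes of G2 and of mitosis. How far they stood below the G1 to S genes depends on the region taken for CDK2. The G2 to M genes had a median of 7.67 (55.4th percentile) and the mitosis genes 6.47 (44.7th percentile). CCNB1, cyclin B1 of the mitotic kinase, led the G2 to M genes with 15.1, 13.8, 12.6 and 15.1. CDC25B, a phosphatase that activates the cyclin kinases, was the lowest at 3.33, 4.44, 3.41 and 4.40. Again both PHF19 overexpression libraries stood above both empty vector ones. Against regions of like height its log2 ratio in the IFN-prefixed pair was 0.18 (-0.22 to 0.57). FOXM1, the mitotic transcription factor, had 6.10, 6.75, 3.90 and 7.51, and its lowest value by far came from the IFN empty vector library. In the mitosis group CDC20, an activator of the anaphase-promoting complex, had the highest mean, from 11.9, 10.2, 10.2 and 10.9. AURKA, a mitotic kinase gene, was taller with empty vector (12.2) and with PHF19 overexpression (10.5). BIRC5 (survivin), a subunit of the chromosomal passenger complex, had the lowest mean of all 38, from 3.36, 3.18, 2.25 and 3.42, although CDC25B was lower with empty vector. MKI67, whose protein Ki-67 marks cycling cells, stood in between at 7.20, 6.47, 6.24 and 5.98.

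To compare libraries, the log2 ratio of a gene's heights was taken relative to the median ratio of the 400 gene-end regions nearest to it in mean height. This reference was used because the ratio depended on height. Without it the median over all gene-end regions was -0.17 between PHF19 overexpression and empty vector, 0.18 in the IFN-prefixed pair, -0.29 for IFN empty vector against empty vector and 0.05 for IFN PHF19 overexpression against PHF19 overexpression. A gene was counted as higher or lower where it passed 0.3 on this log2 scale, which is 1.23-fold, a rule of size and not a test. The same count over all 11984 genes with a gene-end region in all 4 libraries is the background for each comparison.

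**Figure D2:**
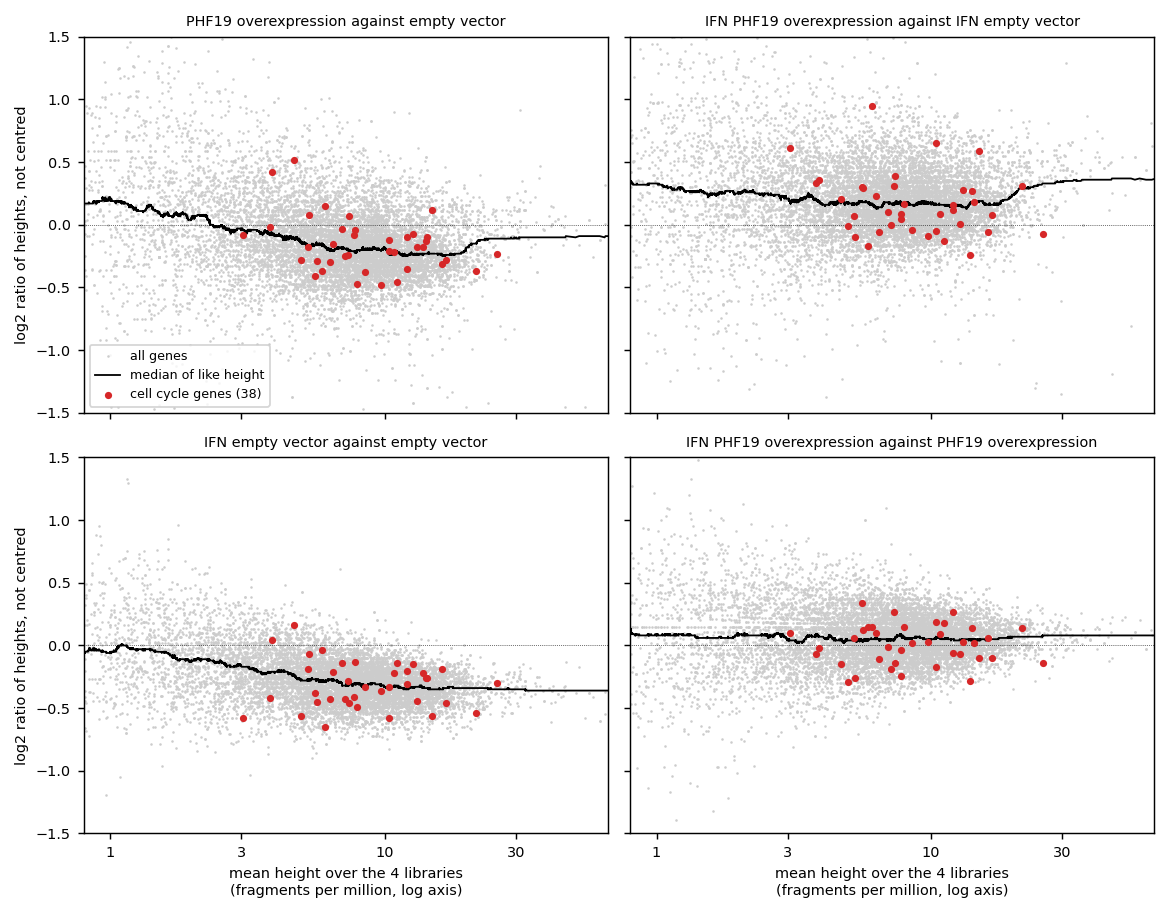
Uncentred log2 ratio of heights (y axis) against mean height over the 4 libraries (fragments per M, log axis) in each of the 4 comparisons. Grey points are all genes, red points the 38 cell cycle genes and the black line the median of the regions nearest in height, which is the reference used; most red points scatter around the line, and genes beyond the axes are not drawn.

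The first question is whether cell cycle genes differed in openness between the PHF19 overexpression and empty vector libraries. As a list they stood at the level of other gene ends of the same height. Their median log2 ratio was 0.01 (95% interval over the genes, which are not replicates, -0.08 to 0.11), with 20 genes above 0 and 18 below. 4 of 38 (10.5%) were higher, against 13.7% of all genes, and 0 were lower, against 10.6%. The central 50% of members lay between -0.12 and 0.14, and that of all genes between -0.16 and 0.16. The genes of the list that passed were CDK6, CDC25B, CCNE2 and FOXM1. Just short of the line came MYBL2 at 0.28 above 0 and CDC6 at -0.28 below.

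CDK6 had the highest ratio of the list, 0.63 (0.22 to 1.03), from 106 fragments with empty vector and 101 in the smaller PHF19 overexpression library. Its region (chr7:92835121-92836906) held 1 summit at the start and another about 0.8 kb from it, inside the gene, in every library, and with empty vector a lower one farther in (2.92 per M). In the empty vector library the first 2 were nearly equal (3.84 and 3.87), and in the other libraries the one at the start was taller. Farther inside CDK6, 10 regions had a peak in all 4 libraries. Their median ratio was -0.17, with 2 of 10 above 0, so the higher value was seen at the start and not across the gene. CDC25B, whose region is shared with CENPB, had 0.49 (0.04 to 0.94) from 91 and 81 fragments. CCNE2 had 0.36 (0.14 to 0.57) and FOXM1 0.32 (-0.02 to 0.67), whose interval reached 0. The lowest ratio was that of CDC6, -0.28 (-0.56 to 0.00), whose heights were 12.0, 8.61, 9.36 and 8.79 per M. The counting interval lay wholly above 0 for 3 members (CDK6, CCNE2 and CDC25B; 7.89%) and below 0 for 2 (RRM2 and CDC6; 5.26%), where 11.3% and 7.18% of all genes were so placed.

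In the IFN-prefixed pair the list again stood near its reference. The median was -0.06 (-0.15 to 0.09), with 17 genes above 0 and 21 below. Higher were 4 of 38 (10.5%), against 13.9% of all genes, and lower were 3 (7.89%), against 11.3%. FOXM1 had the highest ratio, 0.78 (0.46 to 1.09), from 257 fragments in the IFN empty vector library and 123 in the IFN PHF19 overexpression library, which has the fewest fragments. MCM4, an MCM subunit whose region is shared with PRKDC, had 0.49 (0.24 to 0.73) from heights of 11.4, 10.5, 7.62 and 12.0. BIRC5 had 0.42 (-0.05 to 0.87) and CCNE2 0.40 (0.19 to 0.60). In all 4 of these genes the IFN empty vector library held the lowest of the 4 heights. It did so in 22 of the 38 members (57.9%) and in 58.7% of all genes, and the 4 were named for a high ratio over this library. The lower genes were CDK2 at -0.40 (-0.57 to -0.24), MCM2 at -0.40 (-0.63 to -0.17) and BUB1B, a spindle checkpoint kinase, at -0.35 (-0.70 to -0.03). CDC25A at -0.29 lay just short of the line. MCM2, whose region is shared with TPRA1, had 15.9, 14.0, 13.7 and 11.6 per M and was lowest with IFN PHF19 overexpression. BUB1B had 6.54, 5.05, 6.34 and 5.62, both PHF19 overexpression libraries below both empty vector ones. For CDK2, at the 99.0th percentile of height, the reference moved the value, and the ratio was -0.24 against the median of all regions and -0.07 with no reference. Its region at the other gene end had -0.23 (-0.59 to 0.11). In this pair the interval lay above 0 for 3 members (7.89%, against 13.1% of all genes) and below 0 for 5 (CDC25A, MCM2, MCM3, CDK2 and BUB1B; 13.2%, against 9.77%).

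**Figure D3:**
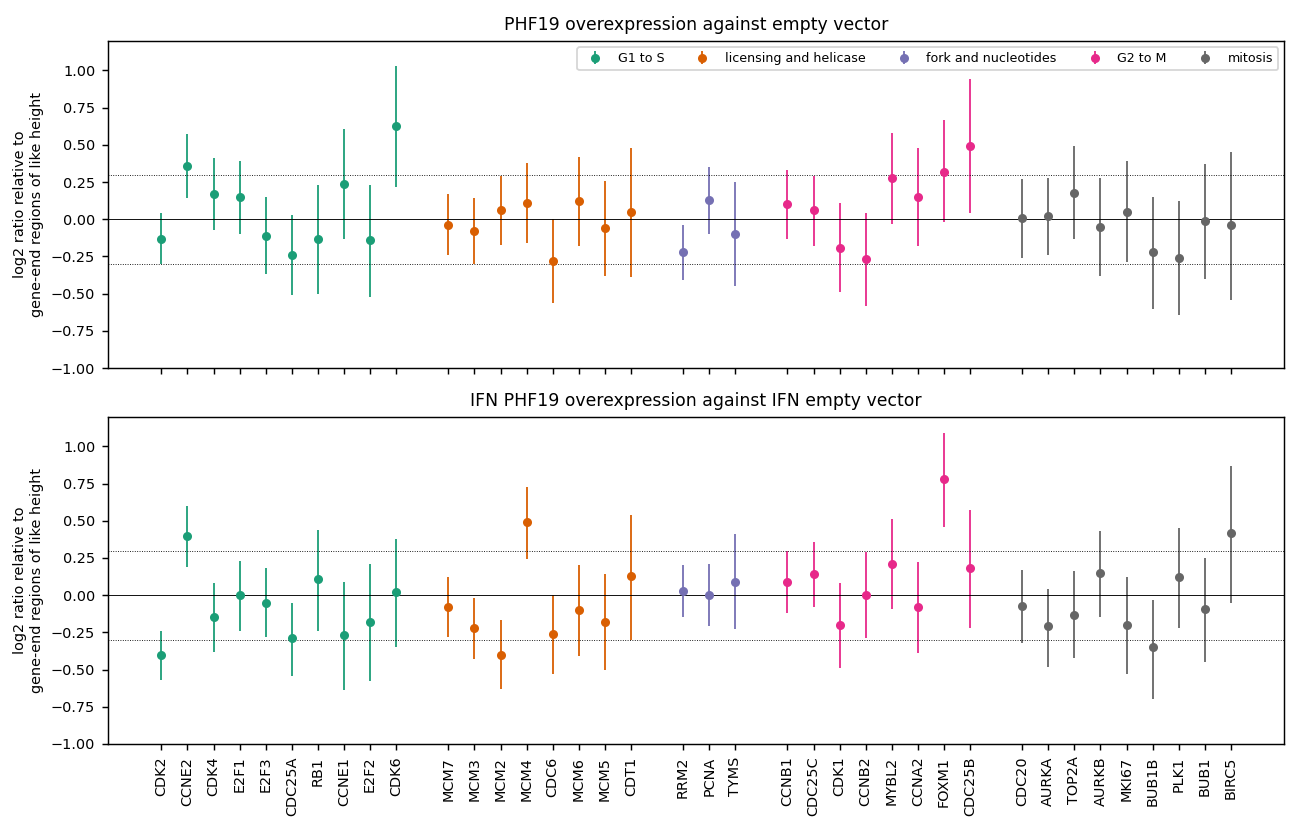
Log2 ratio of height for PHF19 overexpression against empty vector (top) and for the IFN-prefixed pair (bottom), relative to gene-end regions of like height, for the 38 genes ordered as in the plot of heights. Points are ratios of 1 library to 1 library, bars 95% counting intervals and dotted lines the 0.3 limits; in the top panel 4 genes lie above the upper line and 0 below the lower, in the bottom panel 4 and 3.

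The 2 PHF19 comparisons share no library, so a gene can be read in both. CCNE2 and FOXM1 were higher in both, 2 of 38 (5.26%) against 7.33% of all genes, and no member was lower in both, against 4.54%. The sign was the same in 21 of 38 members (55.3%), where it was the same in 65.9% of all genes. Across the members the correlation of the 2 ratios was r = 0.39, and across all genes 0.61. Both of the genes shared by the comparisons lie in stretches where neighbouring regions were high too. The median ratio of the regions within 2.5 Mb of FOXM1 (chr12:2876028-2878161) was above that of all regions by 0.42 in the unprefixed pair and 0.35 in the IFN-prefixed pair, and around CCNE2, on chromosome 8, by 0.30 and 0.27. Relative to these neighbours FOXM1 had -0.17 and 0.43, and CCNE2 -0.06 and 0.15. MCM4, also on chromosome 8, had neighbours above all regions by 0.26 and 0.14, and a ratio of -0.28 and 0.35 relative to them. CDK6 and CDC25B had neighbours within 0.07 of all regions in both pairs. The part of the neighbourhood in these ratios was not tested. The tallest summit of CCNE2 also lies 1044 bp or more from the nearest gene end in every library, outside the 1 kb window that its region reaches. A lower summit inside the window was called in 3 libraries, with 118 fragments for empty vector, 270 for IFN empty vector and 102 for IFN PHF19 overexpression.

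**Figure D4:**
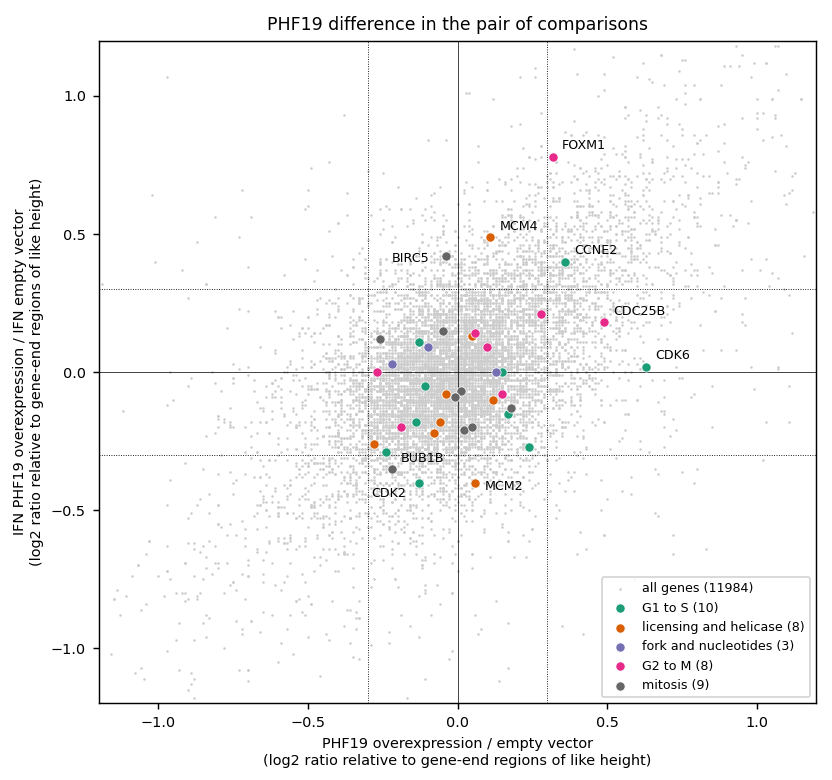
Log2 ratio for PHF19 overexpression against empty vector (x axis) and for the IFN-prefixed pair (y axis), both relative to gene-end regions of like height. Each grey point is a gene, coloured points are the 38 members by role, named where they pass the dotted 0.3 limits; CCNE2 and FOXM1 are the members past 0.3 on both axes, and genes beyond the axes are not drawn.

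By role, against regions of like height, the G2 to M genes had the highest medians, 0.13 and 0.12 in the unprefixed and IFN-prefixed pairs. In each pair 6 of 8 genes were above 0. MYBL2, the gene of B-MYB, was among them with 0.28 (-0.03 to 0.58) and 0.21 (-0.09 to 0.51), and CDC25C with 0.06 and 0.14. CDK1, the mitotic kinase, stood below 0 in both with -0.19 and -0.20. Relative to the local median within 2.5 Mb, the unprefixed ratio was above 0 for CDC25B (0.49), MYBL2 (0.21) and CCNA2 (0.19). It was below 0 for CDC25C (-0.12), CCNB1 (-0.15), CDK1 (-0.17), FOXM1 (-0.17) and CCNB2 (-0.20). In the IFN-prefixed pair CDK1 (-0.05) and CDC25C (-0.09) were below 0 by that reference and the other G2 to M genes above. The place of this role in the unprefixed pair thus depends on the reference. The licensing and helicase genes had medians of 0.01 and -0.14, with 4 of 8 and 2 of 8 above 0. CDC6 had -0.28 and -0.26, MCM3 -0.08 and -0.22, and MCM5 -0.06 and -0.18. The medians of the G1 to S genes were 0.02 and -0.10, of the mitosis genes -0.01 and -0.09, and of the 3 fork and nucleotide genes -0.10 and 0.03. CDC25A, the phosphatase of the G1 to S step, was among the lower members of both comparisons with -0.24 (-0.51 to 0.03) and -0.29 (-0.54 to -0.05). Each role holds 3 to 10 genes, which are not replicates.

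The genes can also be split by their promoter letters, which the choice of members did not use. The 9 genes with an E2F word, such as MCM6 and E2F2 printed above, had a median of -0.08 in the unprefixed pair (-0.28 to 0.15) and -0.20 in the IFN-prefixed pair, where the 9 ranged from -0.40 to 0.00. The 8 genes with a CHR, such as CCNB2 and PLK1, had -0.15 (-0.27 to 0.18) and -0.10 (-0.35 to 0.12). With a CCAAT box the 19 genes had -0.04 and -0.08, and with a GC box the 23 genes had 0.06 and -0.05. All 38 members had medians of 0.01 and -0.06, and 21 of them lay below 0 in the IFN-prefixed pair. A gene can hold several of these words, and no such median was taken over genes outside the list. Base composition was set beside the ratios as well. The 30 member promoters had a median GC content of 65.7% (47.7% to 81.3%), the same median as the promoters of all genes open in the 4 libraries. CDC25B (81.3%), CCNE1 (81.0%) and CDK6 (78.0%) were the richest, and CDK1 (47.7%) and CCNB2 (52.0%) the poorest. Across the 30 genes the ratio for PHF19 overexpression against empty vector correlated with promoter GC content at Pearson's r = 0.64 and Spearman's rho = 0.57, and without CDK6 and CDC25B at r = 0.52 and rho = 0.48. Across 9155 genes r was 0.12. In the IFN-prefixed pair r was 0.42 for the members, 0.34 without CDK6 and CDC25B, and 0.16 for all genes. For the IFN prefix it was 0.08 with empty vector and -0.34 with PHF19 overexpression, where all genes had -0.22 and -0.13. These are descriptions across genes that share 2 libraries, and the part of base composition in the ratios was not tested.

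The IFN prefix was compared in the same way within each vector. Between IFN empty vector and empty vector the members' median was 0.01 (-0.11 to 0.08), with 20 genes above 0 and 18 below. CDK6 was higher at 0.41 (0.08 to 0.74), 1 of 38 (2.63%) against 4.91% of all genes. The empty vector library held the lowest of the 4 CDK6 heights (3.87 per M), as it did in 5.26% of members and 5.03% of all genes. The CDK6 ratio of 0.63 for PHF19 overexpression was taken over that same value, so these ratios are not independent. BIRC5 at -0.41 (-0.80 to -0.02) and FOXM1 at -0.36 (-0.64 to -0.07) were lower, 2 of 38 (5.26%) against 5.03%. In both the IFN empty vector library held the lowest of the 4 heights, as in most genes. Counting intervals left out 0 below for 6 members (E2F2, RRM2, MCM4, CCNE2, FOXM1 and BIRC5; 15.8%), where 7.02% of all genes did so, and above for CDK6 and CDK4 (5.26% against 6.14%).

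Between IFN PHF19 overexpression and PHF19 overexpression, the 2 libraries with the fewest fragments, the median was -0.03 (-0.14 to 0.05). No member was higher, against 7.52% of all genes, and 3 were lower (7.89%), against 6.88%. The lower ones were E2F2 at -0.33 (-0.80 to 0.13), MCM2 at -0.32 (-0.60 to -0.05) and MCM6 at -0.32 (-0.68 to 0.04). E2F2 had heights of 6.25, 5.16, 4.23 and 4.21 per M, so both IFN-prefixed libraries lay below both others. MCM6 had 8.84, 8.34, 6.68 and 7.08, also with both IFN-prefixed libraries below. These heights are not centred. Against regions of like height, IFN empty vector to empty vector had -0.10 (-0.33 to 0.13) for MCM6 and -0.29 (-0.57 to -0.01) for E2F2. The highest ratio of IFN PHF19 overexpression to PHF19 overexpression was that of PLK1, the polo-like kinase of mitotic entry. It was 0.30 (-0.13 to 0.73), right at the line, from 88 and 100 fragments. The PLK1 heights were 6.43, 4.83, 4.95 and 6.11. No member passed the line the same way with both vectors, where 1.03% of all genes were higher and 0.643% lower in both. The sign was the same in 18 of 38 members (47.4%) and in 52.0% of all genes.

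**Figure D5:**
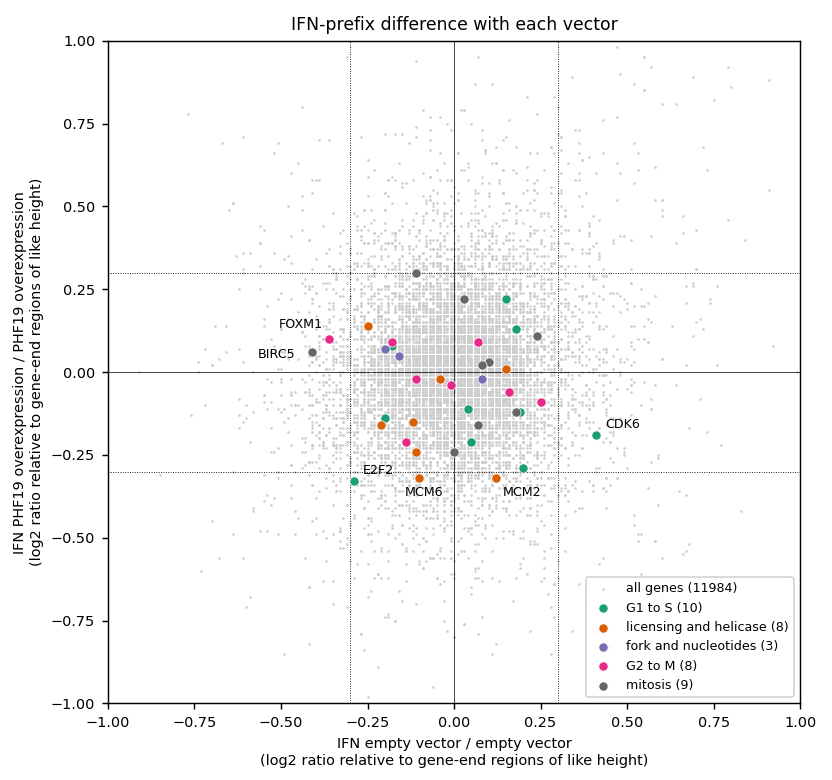
Log2 ratio for IFN empty vector against empty vector (x axis) and for IFN PHF19 overexpression against PHF19 overexpression (y axis), relative to gene-end regions of like height. Grey points are all genes and coloured points the 38 members by role, named where they pass the dotted 0.3 limits; no member lies past 0.3 on both axes in the same direction, and genes beyond the axes are not drawn.

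Away from their ends 15 of the 38 genes held regions, 44 in all, and 23 of the 44 were called in each of the 4 libraries. Such inner regions were not counted over all genes. Most of the 44 lay in a few members. The long genes held the most, 18 in CDK6 and 5 in RB1. The IFN empty vector library, with the most fragments, had a peak in 43 of the 44 and the others in 26 to 33. In 6 genes the tallest inner region stood above the gene-end peak in mean height. They were PCNA (19.3 against 14.3 per M), CDC25C (18.9 against 13.1), MYBL2 (14.5 against 7.41), CDC25B (12.1 against 3.90), CDK6 (11.3 against 4.69) and E2F2 (7.18 against 4.96).

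Another 79 genes of the same processes were taken for comparison, among them origin recognition, GINS, replication factor, kinetochore and spindle genes. Of these 77 had a gene-end region in all 4 libraries, and ORC1 and UHRF1 had none. Their median ratios were -0.05 and -0.05 for PHF19 overexpression in the unprefixed and IFN-prefixed pairs and -0.01 and 0.01 for the IFN prefix with empty vector and with PHF19. In both PHF19 comparisons 4 of 77 were higher (CHEK1, GINS1, GINS4 and PTTG1; 5.19%) and 5 were lower (6.49%), among them CDC7, PRIM1, RFC3 and RPA3, against 7.33% and 4.54% of all genes. RPA3, a subunit of the single-strand binding protein, had -0.42 and -0.83. TYMS, a nucleotide gene on the list of 38, had -0.10 and 0.09. Relative to the local median within 2.5 Mb, GINS1 had 0.45 and 0.50, but CHEK1 had -0.25 and 0.06. GINS4 then had -0.11 and -0.01, and PTTG1 -0.13 and 0.22. By that reference CDC7, PRIM1, RFC3 and RPA3 stayed below 0 in both pairs. The part of the neighbourhood in these ratios was not tested.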

How the data were processed

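ATAC-seq was analysed as 4 peak lists, 1 per group, with groups taken from GEO's labels. Per the file headers, the authors called peaks in each library separately with MACS2 2.1.2 on paired fragments, without a control, at q 0.01, with an effective genome size of 3000000000, keeping duplicates and calling summits. Also named in the submitters' processing notes are bcl2fastq 2.17, Trimmomatic 0.38, DiffBind and hg38. For the aligner, the read filters and a Tn5 shift nothing is given in the sources used here. As deposited, the pileup is signal, the unscaled coverage by fragments at the summit. Deposited fold enrichment, a ratio to local background, and -log10 p-values and q-values are the authors' own for each peak, and served to describe and filter. Duplicates were kept, so fragments are not all independent molecules.

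Peaks on chromosomes 1 to 22 and X that overlapped by 1 bp or more were merged into 73729 regions with Python 3.11.15, numpy 2.4.6, pandas 2.3.3 and scipy 1.17.1 (figures with matplotlib 3.10.9). Gene ends and promoters came from RefSeq tables of GRCh38.p14. A region's height is its tallest pileup per M (mega) fragments in the header (27.4, 18.2, 65.9 and 16.4 M). Each log2 ratio has the exact 95% interval of a ratio of counts. Ratios were taken relative to the 400 gene-end regions nearest in mean height. The merging, the reference and the intervals were tested on simulated data. Values were given for PHF19, for members past 0.3 the same way in both comparisons of a kind, for the tallest and lowest member of each role, and for the highest and lowest ratio of each comparison. Other members named were picked after their values were seen. The members and lists were chosen with earlier results of these data known. Alternatives were other references, windows of 0.5 and 2 kb, starts only, summits inside the window, q 1e-05, lists of equal length, a limit of 0.5, and leaving out members with shared regions. Exons and far ends of genes were not annotated here. Values of 1 gene of the comparison list and 1 marker are not reported here.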

Additional observations from a re-analysis of the deposited data

Results flagged for a closer look

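For 5 genes the ratio of PHF19 overexpression to empty vector differed between the IFN-prefixed and the unprefixed pair by more than counting error, and these libraries have no replicates, so the difference of the conditions was not tested. The IFN-prefixed ratio minus the unprefixed one was -0.60 for CDK6 (95% counting interval -1.13 to -0.07; 0.02 against 0.63). It was -0.52 for CCNE1, the other cyclin E gene (-1.02 to -0.01; -0.27 against 0.24), and -0.46 for MCM2 (-0.77 to -0.14; -0.40 against 0.06). For CDK2 it was -0.27 (-0.50 to -0.04; -0.40 against -0.13) and for MCM4 0.38 (0.02 to 0.73; 0.49 against 0.11). These 5 are 13.2% of the 38 genes, where 6.74% of all genes had such a difference. The unprefixed ratio of CDK6 rests on the empty vector library, which held the lowest of its 4 heights. Centred on all shared regions, an alternative chosen after seeing the data, the difference was -0.11 for CDK2 (-0.34 to 0.12) and -0.46 for CCNE1 (-0.97 to 0.04), both with intervals that reach 0. It was -0.59 for CDK6, -0.34 for MCM2 (-0.65 to -0.02) and 0.50 for MCM4 (0.14 to 0.85). With this centring the intervals of RRM2 (0.40; 0.16 to 0.65) and FOXM1 (0.52; 0.06 to 0.98) also left out 0, which they did not against regions of like height. The share of all genes was not taken under this centring.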

How the results depend on the processing

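No paired analysis was possible because each group holds 1 library, and for the same reason no library could be left out. Of the list medians and counts, 106 values under an alternative stayed within their limits and 42 moved, most with the reference. The share or median of all genes under the same setting stands in parentheses, and 1 of 38 members is 2.63%. Centred on all shared regions, PHF19 overexpression against empty vector had 2 members higher (13.0%) and 4 lower (14.4%), and both PHF19 comparisons 0 higher (7.24%) and 1 lower (4.31%). The IFN empty vector comparison then had a median of -0.24 (-0.20), 0 higher (2.7%) and 15 lower (27.6%), the IFN PHF19 comparison 5 lower (10.6%) and both IFN comparisons 3 lower (2.67%). Without centring, PHF19 had a median of -0.18 (-0.17), 2 higher (8.6%) and 10 lower (28.5%), and its IFN-prefixed pair 0.11 (0.18), 10 higher (31.5%) and 0 lower (3.9%). IFN with empty vector had -0.32 (-0.29), 0 higher (1.6%) and 21 lower (47.5%), and IFN with PHF19 1 higher (11.3%) and 0 lower (4.0%). Relative to the local median, PHF19 had 2 higher (10.9%) and 1 lower (12.0%), both PHF19 comparisons 0 higher (4.82%), IFN with empty vector a median of -0.24 (-0.18), 0 higher (3.1%) and 13 lower (24.9%), and both IFN comparisons 2 lower (2.7%). At starts only (31 genes), PHF19 had 2 higher (12.2%), its IFN-prefixed pair 0 higher (12.5%) and IFN with empty vector 0 lower (4.6%). With summits inside the window (37 genes, as CCNE2 has none there with PHF19 overexpression), 1 was higher for IFN with PHF19 (7.5%) and 1 in both PHF19 comparisons (7.26%). At a limit of 0.5, PHF19 had 1 higher (5.7%), its IFN-prefixed pair 1 higher (5.4%) and 0 lower (4.1%), and both 0 higher (2.72%). For IFN it left 0 higher (1.0%) and 0 lower (0.8%) with empty vector and 0 lower (1.6%) with PHF19. Without the 10 members that share a region with another gene, an alternative chosen after seeing the data, PHF19 had 2 higher (13.7%) and its IFN-prefixed pair 2 higher (13.8%) and 1 lower (11.3%). Among the single genes past 0.3, the only ones rerun under each alternative, those that changed sign were CCNE2 (-0.06) and FOXM1 (-0.17) for PHF19 relative to the local median, and E2F2 (0.29) for IFN with PHF19 in a window of 2 kb, which takes another region. Over all 38 members, 11 changed sign relative to the local median in the PHF19 comparison and 6 in its IFN-prefixed pair. The count of members with a gene-end peak stayed within 1.5 times under all 4 alternatives run. Depth limits the lowest genes most: BIRC5 rested on 56 fragments in the smallest library.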
